A study of Homo sapiens with 24 samples.

Results

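The comparison described here followed the response of the PEO1 BRCA2+ ovarian cancer line to the G-quadruplex ligand pyridostatin (PDS) from 2 h to 6 h of exposure. It used 6 of the 24 RNA libraries of the series, chosen by their labels alone: 3 libraries of PEO1 BRCA2+ cells kept for 2 h in medium with 5 µM PDS and 3 kept for 6 h in the same medium. PEO1 is a human ovarian adenocarcinoma line, and its BRCA2+ form regained BRCA2 by spontaneous reversion, according to the study's methods. Untreated libraries of the same cells (called 0 h here, n = 3) and libraries of PEO4 treated in the same way (labelled WT, n = 3 at 2 h and n = 3 at 6 h) were used for reference. PEO4 came from the same patient as PEO1 after resistance to chemotherapy had developed, so both lines stand for 1 tumour. Untreated and treated cells differ in exposure to PDS, but the labels give no library of cells kept for 6 h without it, so time in culture and time with PDS cannot be told apart. The remaining 6 libraries, an untreated pair of PEO1 and PEO4 from another set, were not used here. The labels do not say that replicates came from separate cultures, so the spread between replicate libraries may be technical. The p-values rest on a spread estimated over 18 libraries, which include those of PEO4 and of untreated cells of both lines.

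A G-quadruplex is a folded structure of guanine-rich DNA or RNA in which tetrads of guanines stack on one another. Such structures are frequent at promoters of expressed genes, and helicases unwind them ahead of replication and transcription. PDS is a small molecule that binds and stabilises them, and cells given PDS are known to build up DNA breaks at transcribed and replicating sites. BRCA2, which acts in the repair of broken DNA by homologous recombination, is a protein whose loss makes cells sensitive to such ligands.

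The 6 libraries held between 33260167 and 39866793 reads assigned to genes, with a median of 34591154 at 2 h and 35027341 at 6 h, and the untreated libraries between 19635769 and 22375644. Reads of ribosomal RNA genes made up 0.0233% to 0.0253% of reads at 2 h, 0.0163% to 0.0369% at 6 h and 0.217% to 0.474% at 0 h. The last of these shares stood apart, and its part in differences from 0 h was not tested. The epithelial ovarian carcinoma markers fitted the label, with 12 of 12 above 1 CPM (counts per 1 000 000 reads) and a summed level of 15612 to 17046 CPM at 2 h and 14347 to 15646 CPM at 6 h. Of the other markers, 0 of 5 endothelial, 1 of 7 fibroblast and 2 of 8 immune genes were above 1 CPM, and COL3A1, LUM, CD3E and HLA-DRA had no read in any of the 6 libraries. A principal component analysis of the 9 PEO1 BRCA2+ libraries placed the 0 h libraries apart from the treated ones on the first component (70.8% of the variance), and 2 h apart from 6 h on the second (5.71%).

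Between 2 h and 6 h the changes were small and numerous. Of 17020 genes tested, 674 were higher at 6 h (3.96%) and 508 were lower (2.98%), together 1182 (6.94%), at an adjusted p under 0.05. The test was the quasi-likelihood test of edgeR, its p-values were adjusted by the Benjamini-Hochberg method over the 17020 genes, and fold changes are 6 h against 2 h on the log2 scale with their standard error (SE). The median change was 0.34 among the genes that rose and -0.39 among those that fell, beside a median absolute change of 0.118 over all genes, and 91.1% of all genes moved by less than 0.5. With a log2 change beyond 1 in addition, 12 genes were called higher (0.0705%) and 17 lower (0.0999%), together 29 (0.170%). A fold of 1.5 or more was reached by 74 of the genes that rose and 105 of those that fell. The 3 libraries at 2 h and the 3 at 6 h did not overlap in CPM for 670 of the 674 and 499 of the 508, against 31.3% of all genes tested. These genes were chosen by a test on the same libraries, so their separation adds no support to the calls. The number of calls moved with the fit. A fit to the 6 libraries alone gave 1176 higher and 1160 lower, and leaving out any one library except 6 h replicate 3 lowered the total of 1182 by over 1.5 times, to between 569 without 6 h replicate 1 and 695 without 2 h replicate 1.

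**Figure D1:**
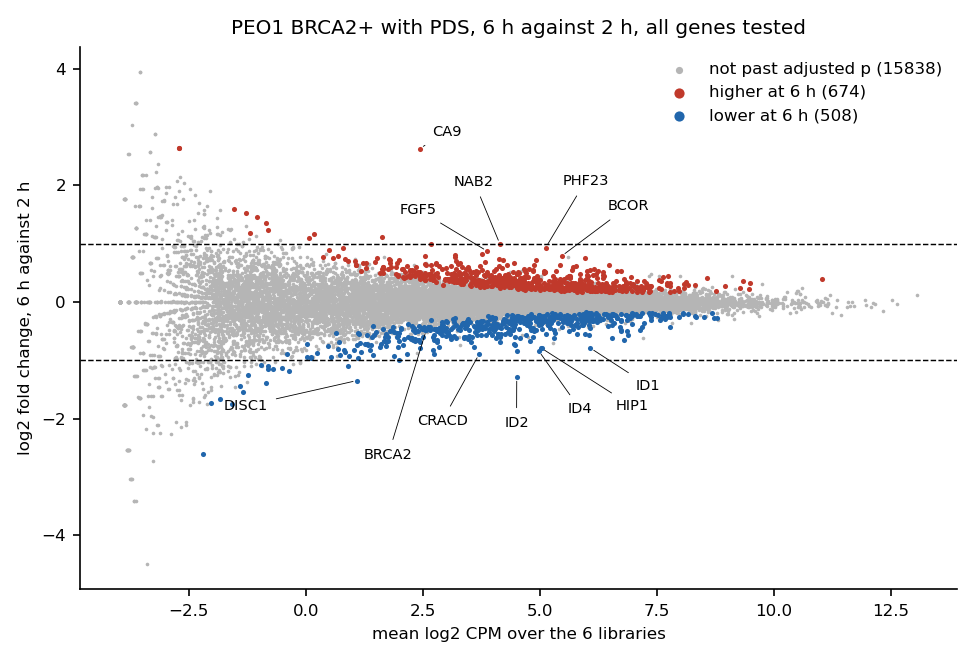
Log2 fold change at 6 h against 2 h of PDS in PEO1 BRCA2+ (y axis) against the mean log2 CPM over the 6 libraries (x axis), with 1 point for each of the 17020 genes tested. Red and blue points are the 674 higher and 508 lower genes past an adjusted p of 0.05, dashed lines mark a log2 change of 1 and -1, and at a mean log2 CPM of at least 1 the 2 genes above the upper line are CA9 and the pseudogene CCT6P3.

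Most of the 29 genes past the fold threshold were read few times. At a mean log2 CPM of at least 1 there were 2 higher, CA9 and the pseudogene CCT6P3, and 2 lower, ID2 and DISC1. TNIK, which had 22 to 31 reads at 2 h and 6 to 15 at 6 h, shared with CA9, CCT6P3, ID2 and DISC1 that its fold call held without any one of the 6 libraries. The following 2 genes were picked after their values were seen. PTCH1, the hedgehog receptor, had 25, 22 and 22 reads at 2 h and 48, 47 and 54 at 6 h (log2 change 1.10 ± 0.29, adjusted p = 0.0217), and its call held in 1 of 6 fits that left out a library. TENT5C, which lengthens poly(A) tails, had 88, 96 and 90 reads at 2 h and 43, 43 and 42 at 6 h (log2 change -1.10 ± 0.25, adjusted p = 0.00831), and its call held in 5 of 6. The pseudogenes BMS1P17 and BMS1P18 had equal counts in each of the 6 libraries, 3 reads in all at 2 h and 21 at 6 h. Whether the same reads were counted for both was not tested.

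CA9 had the largest increase of the protein-coding genes past the fold threshold. It encodes a membrane-bound carbonic anhydrase that helps to set the pH outside the cell and is a textbook target of hypoxia-inducible factor (chromosome 9, 35673928 to 35681159, hg38). Its level was 2.06, 3.14 and 0.834 CPM at 0 h, 2.58, 1.73 and 2.15 CPM at 2 h and 13.6, 13.5 and 12.7 CPM at 6 h. The 0 h and 2 h libraries overlapped and all 3 libraries at 6 h lay far above both. The change from 2 h to 6 h was 2.63 ± 0.22 (adjusted p = 4.85e-07), or 6.19-fold higher, with 82, 67 and 72 reads at 2 h and 502, 446 and 432 reads at 6 h.

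PHF23 and NAB2 were the higher genes with the smallest adjusted p among the 12 with the largest increase at a mean log2 CPM of at least 3. PHF23, a protein with a PHD finger (chromosome 17, 7235038 to 7240828), had 26.5, 25.03 and 24.2 CPM at 2 h and 47.5, 49.7 and 47.1 CPM at 6 h (0.93 ± 0.066, adjusted p = 2.85e-09). At 0 h it had 29.6, 27.2 and 30.6 CPM, so the 6 h libraries were the highest of the 9. NAB2, a co-repressor that binds the EGR transcription factors (chromosome 12, 57089114 to 57095476), had 12.3, 12.5 and 12.7 CPM at 2 h and 23.8, 26.7 and 24.2 CPM at 6 h (0.99 ± 0.077, adjusted p = 1.35e-08). Its 0 h libraries, at 21.4, 23.7 and 22.96 CPM, lay just below those at 6 h, and the 2 h libraries were the lowest. PHF23 overlaps GABARAP and NAB2 overlaps STAT6 in the annotation, and the strand setting of the counting was not given in the sources used here.

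Among genes whose mean log2 CPM reached 3, ID2 had the largest decrease, and it had the smallest adjusted p of the genes that fell. It belongs to the ID family, which binds basic helix-loop-helix transcription factors and keeps them off DNA (chromosome 2, 8682056 to 8684461). Its level was 51.04, 41.6 and 50.4 CPM at 0 h, 37.6, 36.1 and 32.8 CPM at 2 h and 15.5, 15.1 and 13.03 CPM at 6 h, and the groups did not overlap at any step. The change from 2 h to 6 h was -1.29 ± 0.087 (adjusted p = 2.85e-09), or 2.44-fold lower. In PEO4 the change over the same interval was -1.32 ± 0.078, and the difference between the lines was -0.035 (adjusted p = 0.837).

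The promoters of these 3 genes are shown because PHF23 and ID2 were the named genes up and down with the smallest adjusted p, and because NAB2 was the higher and ID2 the lower gene with the smallest adjusted p whose promoter holds a G-quadruplex motif. Each is the 250 bases before the start of the Ensembl canonical transcript (GENCODE annotation, hg38), printed 5′ to 3′ along the gene. Capitals mark the motif, 4 runs of GGG joined by loops of 1 to 7 bases, on this strand or, where it reads as runs of CCC, on the other. Only matches that do not overlap another on the same strand were marked. Bases in small letters beside a marked stretch can therefore also fit the motif.
PHF23 (chr17:7239458-7239707, minus strand): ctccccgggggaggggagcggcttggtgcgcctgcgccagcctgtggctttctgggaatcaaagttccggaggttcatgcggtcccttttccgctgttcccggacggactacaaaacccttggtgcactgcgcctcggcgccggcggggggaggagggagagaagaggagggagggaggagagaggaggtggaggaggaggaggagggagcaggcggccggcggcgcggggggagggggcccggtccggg
NAB2 (chr12:57088864-57089113, plus strand): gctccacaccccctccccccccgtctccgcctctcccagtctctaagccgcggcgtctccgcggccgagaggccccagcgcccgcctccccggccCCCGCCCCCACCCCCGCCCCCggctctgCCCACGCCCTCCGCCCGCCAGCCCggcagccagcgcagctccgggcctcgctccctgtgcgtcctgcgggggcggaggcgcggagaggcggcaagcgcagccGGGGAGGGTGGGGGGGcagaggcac
ID2 (chr2:8681806-8682055, plus strand): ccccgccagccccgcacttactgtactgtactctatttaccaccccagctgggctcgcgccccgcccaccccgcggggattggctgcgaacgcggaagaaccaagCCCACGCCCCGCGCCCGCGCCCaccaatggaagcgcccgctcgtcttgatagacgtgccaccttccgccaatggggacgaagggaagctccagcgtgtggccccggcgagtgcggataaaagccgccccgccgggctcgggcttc
Counted without overlap and from the 5′ end, NAB2 held 3 matches, 1 on the plus strand at bases 226 to 241 and 2 on the minus strand. The latter were at bases 96 to 116 and 124 to 147. ID2 held 1, on the minus strand at bases 106 to 127. PHF23 held none. A match describes letters in the window and does not show that a structure formed.

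Across all genes, the window from 250 bases before to 50 after the start held the motif in 274 of 639 promoters of genes that rose (42.9%, 95% Wilson interval 39.1% to 46.8%), in 206 of 499 of genes that fell (41.3%, 37.1% to 45.7%) and in 5831 of 15908 of all genes tested (36.7%, 35.9% to 37.4%). The shares for genes that rose and fell differed by less than their intervals. Promoters of both groups were somewhat richer in G and C, with a median of 68.7% for genes that rose and 67.3% for genes that fell against 65.3% over all genes tested, and the part of this in the motif shares was not tested. With the genes divided into 5 equal groups by promoter GC content, 5.44% rose and 4.12% fell in the highest group, and 2.29% rose and 2.14% fell in the lowest.

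The genes that rose and fell differed in length. The median gene length was 18238 bases for genes that rose, 58372 bases for genes that fell and 26771 bases over all genes with a length. With the genes divided into 5 equal groups by length, in the shortest group, up to 7056 bases, 3.98% were higher and 1.16% lower, with a median log2 change of 0.032. In the longest group, from 88312 bases, 2.17% were higher and 5.94% lower, with a median of -0.051. The longest group thus had more genes that fell than rose, and the other 4 had more that rose.

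**Figure D2:**
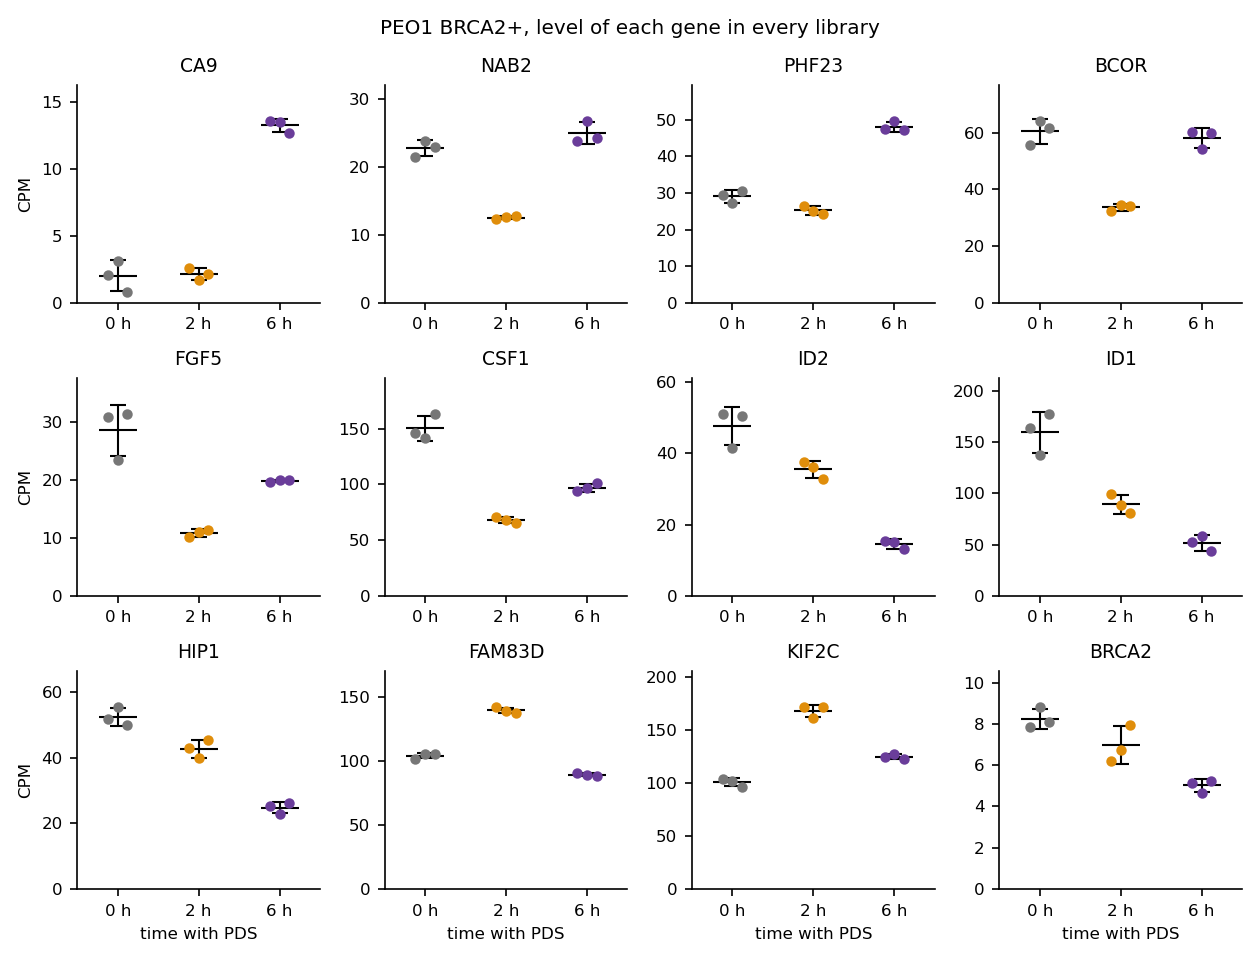
Level in CPM (y axis, from 0) of 12 genes in each of the 9 PEO1 BRCA2+ libraries at 0 h, 2 h and 6 h with PDS (x axis). Points are libraries, and the bar and whiskers are the mean and SD of 3. CA9 and PHF23 are highest at 6 h, NAB2, BCOR, FGF5 and CSF1 are lowest at 2 h, ID2, ID1, HIP1 and BRCA2 are lowest at 6 h, and FAM83D and KIF2C are highest at 2 h.

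BCOR, the co-repressor that binds BCL6, had 32.3, 34.3 and 34.2 CPM at 2 h and 60.3, 54.03 and 59.7 CPM at 6 h, against 55.5, 64.1 and 61.5 CPM at 0 h (0.79 ± 0.064, adjusted p = 2.45e-08). Its 2 h libraries were the lowest of the 9, and its 0 h and 6 h libraries overlapped. PHF13, which binds methylated histone H3, followed the same order, with 19.9, 21.6 and 18.1 CPM at 0 h, 10.2, 9.95 and 10.2 CPM at 2 h and 19.5, 17.4 and 16.8 CPM at 6 h (0.82 ± 0.12, adjusted p = 0.000267). LONRF1, a RING finger protein, moved from 7.18, 7.21 and 6.29 CPM to 11.04, 11.6 and 13.6 CPM (0.81 ± 0.11, adjusted p = 3.31e-05), with 11.02, 11.4 and 10.9 CPM at 0 h. ZNF514, a zinc finger gene, moved from 6.67, 7.19 and 6.95 CPM to 11.96, 10.7 and 12.9 CPM (0.77 ± 0.10). Each of these genes thus had a 2 h level below both its 0 h and its 6 h level. The comparisons of 2 h with 0 h and of 6 h with 2 h share the 2 h libraries, so a chance low value at 2 h would enter both.

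The growth factor genes FGF5 and PDGFB were likewise lowest at 2 h. FGF5, a fibroblast growth factor, had 30.9, 23.5 and 31.3 CPM at 0 h, 10.1, 10.99 and 11.4 CPM at 2 h and 19.6, 19.95 and 19.9 CPM at 6 h (0.87 ± 0.12 from 2 h to 6 h, adjusted p = 5.98e-05), so that the 6 h libraries still lay below those at 0 h. PDGFB, a platelet-derived growth factor chain, moved from 48.1, 49.2 and 47.9 CPM to 77.3, 78.7 and 88.5 CPM (0.75 ± 0.10, adjusted p = 5.98e-05), above its 0 h level of 58.2, 62.6 and 58.5 CPM. FAM193B moved from 24.3, 23.6 and 22.8 CPM to 38.6, 38.1 and 39.4 CPM (0.72 ± 0.069, adjusted p = 4.85e-07). KLHL23 changed by 0.73 ± 0.081 and the readthrough gene PHOSPHO2-KLHL23, which contains it, by 0.72 ± 0.077, and the reads of these genes cannot be told apart. ACTBL2, an actin-like gene, was the last of the 12, with 6.77, 7.37 and 7.61 CPM at 2 h and 11.9, 11.8 and 11.6 CPM at 6 h (0.70 ± 0.14, adjusted p = 0.00326).

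The 12 genes with the largest decrease, chosen by the same rule, included 3 ID genes. ID1 had 163, 137 and 177 CPM at 0 h, 98.8, 88.2 and 80.3 CPM at 2 h and 52.7, 58.4 and 43.7 CPM at 6 h (-0.79 ± 0.13 from 2 h to 6 h, adjusted p = 0.00133), falling at each step without overlap. ID4 had 30.1, 21.9 and 36.4 CPM at 0 h, 41.8, 44.4 and 40.03 CPM at 2 h and 25.5, 24.4 and 20.8 CPM at 6 h (-0.84 ± 0.13, adjusted p = 0.000849), so that its 2 h libraries were the highest. HIP1, an adaptor in clathrin-coated vesicles, moved from 42.9, 39.9 and 45.5 CPM to 25.2, 22.9 and 26.2 CPM (-0.79 ± 0.077, adjusted p = 4.85e-07). CRACD, which acts on actin capping, moved from 18.5, 17.01 and 17.6 CPM to 9.93, 8.34 and 10.3 CPM (-0.89 ± 0.10, adjusted p = 5.57e-06). MAGI1, a scaffold of cell junctions, was level between 0 h (28.8, 28.8 and 26.3 CPM) and 2 h (27.4, 28.7 and 29.8 CPM) and reached 16.95, 14.8 and 19.7 CPM at 6 h (-0.74 ± 0.083, adjusted p = 3.56e-06). For each of these genes all 3 libraries at 6 h lay below all 3 at 2 h, which the rule that chose them required.

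HAS2, which makes hyaluronan, moved from 14.4, 17.01 and 15.5 CPM to 9.49, 9.4 and 8.66 CPM (-0.77 ± 0.13, adjusted p = 0.000621), and STARD13, a GTPase-activating protein, from 22.4, 21.2 and 23.8 CPM to 14.1, 13.3 and 14.5 CPM (-0.69 ± 0.10, adjusted p = 7.42e-05). STARD13 had risen from 10.8, 14.4 and 14.01 CPM at 0 h, and its 6 h libraries overlapped that range. The rest of the 12 were BRINP2 (-0.84 ± 0.16), SAMD12 (-0.80 ± 0.094), the netrin receptor UNC5A (-0.72 ± 0.12) and the DNA helicase PIF1 (-0.69 ± 0.10). DISC1, a scaffold protein of neurons that is named for passing the fold threshold (chromosome 1, 231626790 to 232041272), had 3.68, 3.49 and 3.07 CPM at 2 h and 0.895, 1.03 and 2.11 CPM at 6 h (-1.35 ± 0.24, adjusted p = 0.00108). It overlaps the readthrough gene TSNAX-DISC1.

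Of 36 gene lists, 35 had members that were tested, and the list with the most calls was mitosis and G2/M. These genes build and run the spindle and are transcribed late in the cell cycle. Of 63 members tested, 27 fell (42.9%, beside 2.98% of all genes tested), 0 rose (beside 3.96%) and 36 did not pass the test. These shares of all genes, 3.96% higher and 2.98% lower, are the ones to read each count of the other lists against. The change was below 0 for 56 of the 63, and the median was -0.20 against 0.00040 over all genes tested. FAM83D, which brings a kinase to the spindle, had 102, 105 and 105 CPM at 0 h, 142, 139 and 138 CPM at 2 h and 90.4, 89.3 and 87.8 CPM at 6 h (-0.64 ± 0.063, adjusted p = 4.85e-07). KIF2C, a kinesin that takes microtubules apart, had 104, 102 and 96.4 CPM at 0 h, 171, 161 and 171 CPM at 2 h and 124, 127 and 123 CPM at 6 h (-0.43 ± 0.06, adjusted p = 5.41e-05). In both genes the 2 h libraries were the highest of the 9.

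The kinesin KIF18A and the kinase AURKA also had their highest mean level at 2 h. KIF18A had a mean of 39.9 CPM at 0 h, 58.6 CPM at 2 h and 41.7 CPM at 6 h (-0.49 ± 0.063, adjusted p = 2.11e-05), and AURKA 90.6, 138 and 97.2 CPM (-0.50 ± 0.072, adjusted p = 8.02e-05). The centromeric histone CENPA changed by -0.48 ± 0.07, the kinase PLK1 by -0.31 ± 0.076, the spindle factor TPX2 by -0.26 ± 0.06 and cyclin CCNB1 by -0.23 ± 0.068, all past the test. The proliferation marker MKI67 (-0.15 ± 0.13, adjusted p = 0.594), the cyclin-dependent kinase CDK1 (0.00067 ± 0.06, adjusted p = 1) and KIF18B (0.14 ± 0.075, adjusted p = 0.31) did not pass it. Without 6 h replicate 1 the number of members that fell was 17, and without any other one library it was 18 to 24. TOP2A (-0.19 ± 0.053, adjusted p = 0.0327) kept its call only without 6 h replicate 3 among these 6 fits, with adjusted p of 0.0687 to 0.147 in the other 5.

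**Figure D3:**
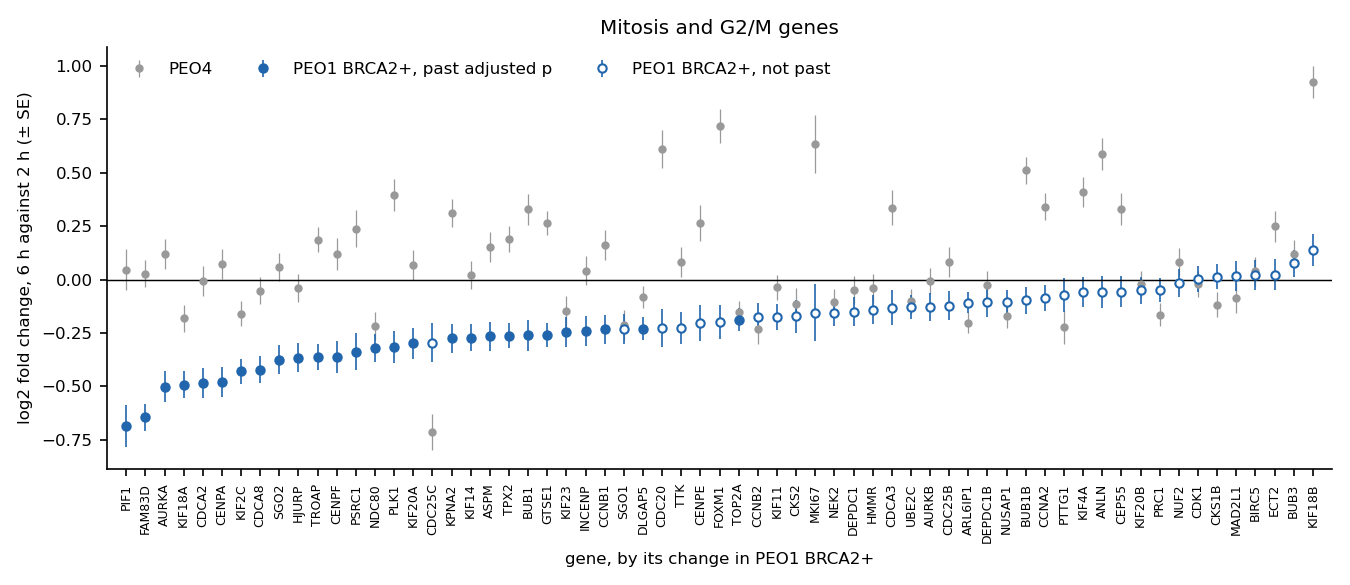
Log2 fold change at 6 h against 2 h with its SE (y axis) for the 63 mitosis and G2/M genes, ordered by the change in PEO1 BRCA2+ (x axis). Filled blue points are the 27 genes past the adjusted p in PEO1 BRCA2+, open blue points the 36 that were not, and grey points the same genes in PEO4, which scatter on both sides of 0.

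In PEO4 the same list had 20 members higher (31.7%, beside 28.9% of all genes tested) and 11 lower (17.5%, beside 31.3%), with a median of 0.041. The difference between the lines (PEO4 change minus PEO1 BRCA2+ change) passed the test for 36 of 63 members (57.1%), 35 of them in the direction of a higher change in PEO4, beside 43.3% of all genes tested. Of 44 genes of the G1/S phase and DNA replication tested in PEO1 BRCA2+, 1 rose and 2 fell, with a median of 0.0033. These were CCNE2, a cyclin that starts S phase (0.55 ± 0.12, adjusted p = 0.006), the polymerase subunit POLD3 (-0.20 ± 0.058, adjusted p = 0.0333) and the transcription factor E2F8 (-0.26 ± 0.081, adjusted p = 0.0472). CCNE2 was higher at each step, with means of 18.5, 23.8 and 34.96 CPM at 0 h, 2 h and 6 h. The calls of POLD3 and E2F8 were each lost in 5 of the 6 fits that left out a library, with adjusted p of up to 0.151 and 0.191, and E2F8 lost its call with scaling to library totals as well. None of 36 replication-dependent histone genes passed the test (median -0.20), a class of mRNAs without poly(A) tails that selection for poly(A) recovers poorly.

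The integrated stress response list, genes induced by ATF4 for amino acid supply, had 8 of 26 members lower (30.8%, beside 2.98% of all genes) and 0 higher, with a median of -0.20. ATF4, the transcription factor that drives the response, had 335, 301 and 329 CPM at 0 h, 409, 399.6 and 391 CPM at 2 h and 335, 339 and 331 CPM at 6 h (-0.25 ± 0.057, adjusted p = 0.00644), highest at 2 h. ALDH1L2 of mitochondrial folate metabolism moved from 14.7, 15.6 and 18.4 CPM to 11.2, 10.2 and 11.6 CPM (-0.56 ± 0.11, adjusted p = 0.00178). The serine-metabolism enzyme SHMT2 (-0.27 ± 0.058), the alanyl-tRNA synthetase AARS1 (-0.26 ± 0.054), CHAC1, which degrades glutathione (-0.52 ± 0.13), CTH of cysteine synthesis (-0.46 ± 0.12), PSAT1 of serine synthesis (-0.23 ± 0.069) and the sestrin SESN2 (-0.41 ± 0.10) also fell. SESN2 lost its call without 6 h replicate 1 (adjusted p = 0.0774), and 4 members of the list passed the test without that library and 5 without 6 h replicate 2. The unfolded protein response (18 genes tested) and heat shock chaperones (16 genes tested) had no member past the test, with medians of -0.080 and -0.0044. In PEO4, 2 of the 26 integrated stress response genes were higher (7.69%, beside 28.9% of all genes) and 15 lower (57.7%, beside 31.3%), with a median of -0.34.

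The hypoxia and glycolysis list had 6 of 26 members higher (23.1%, beside 3.96% of all genes) and 1 lower (3.85%, beside 2.98%), with a median of 0.16. Beside CA9, BNIP3, which acts in mitophagy, had 42.2, 44.9 and 40.96 CPM at 0 h, 59.5, 58.4 and 57.4 CPM at 2 h and 79.8, 89.2 and 89.2 CPM at 6 h (0.56 ± 0.066, adjusted p = 6.69e-06), rising at each step without overlap. LDHA, the lactate dehydrogenase subunit, changed by 0.39 ± 0.093 (adjusted p = 0.0144), the glycolytic kinase PGK1 by 0.32 ± 0.085 (adjusted p = 0.0244) and the collagen prolyl hydroxylase P4HA1 by 0.34 ± 0.069 (adjusted p = 0.00285). VEGFA, the vascular growth factor, had 51.1, 48.4 and 46.9 CPM at 0 h, 27.6, 30.04 and 28.7 CPM at 2 h and 41.9, 39.9 and 39.8 CPM at 6 h (0.49 ± 0.09, adjusted p = 0.0016), below its untreated level at both times. PFKFB3, which activates glycolysis, fell from 61.2, 60.99 and 62.3 CPM to 48.1, 43.8 and 48.7 CPM (-0.39 ± 0.062, adjusted p = 0.000267). The number of members that rose was 4 or 5 without any one library. In PEO4, 5 members were higher (19.2%, beside 28.9% of all genes) and 12 lower (46.2%, beside 31.3%), with a median of -0.24.

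Cholesterol synthesis had 5 of 25 members higher and 0 lower (median 0.090). SQLE, the squalene epoxidase, had 173, 171 and 168 CPM at 2 h and 221, 217 and 216 CPM at 6 h against 153, 155 and 151 CPM at 0 h (0.35 ± 0.059, adjusted p = 0.000472), and MVK, the mevalonate kinase, had 26.9, 24.98 and 24.1 CPM and 33.2, 35.3 and 32.1 CPM (0.40 ± 0.076, adjusted p = 0.00151). These were the members still called when any one library but 6 h replicate 3 was left out. MSMO1 (0.26 ± 0.076, adjusted p = 0.0372), CYP51A1 (0.32 ± 0.092, adjusted p = 0.0378) and HMGCS1 (0.35 ± 0.10, adjusted p = 0.0468) lost their calls in those 5 fits, and with a filter of at least 1 count in all the list had 3 members higher. In PEO4, 2 of the 25 members were higher and 16 lower (beside 28.9% and 31.3% of all genes), with a median of -0.29. Of 14 fatty acid synthesis genes, the elongase ELOVL6 fell (-0.42 ± 0.10, adjusted p = 0.0112), a call lost without 2 h replicate 3 or 6 h replicate 3, and none rose.

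Metallothioneins are small proteins that bind zinc and copper. Their list, which also holds the zinc exporter gene SLC30A1, had 4 of 10 members higher and 1 lower (median 0.26). The members that rose were metallothioneins, and the 1 that fell was SLC30A1. MT1X had 26.98, 20.9 and 20.6 CPM at 0 h, 82.4, 69.1 and 64.4 CPM at 2 h and 119, 126 and 88.99 CPM at 6 h (0.63 ± 0.12 from 2 h to 6 h, adjusted p = 0.00362), rising at each step without overlap. MT1E, MT1F and MT1M had means of 577, 15.9 and 44.7 CPM at 2 h and 737, 24.6 and 68.4 CPM at 6 h, with changes of 0.35 ± 0.085, 0.63 ± 0.15 and 0.61 ± 0.15. The 6 h replicate 3 had the lowest level of the 3 at 6 h in all these genes. Leaving out 2 h replicate 3, 6 h replicate 1 or 6 h replicate 2 reduced the 4 calls to 1, and leaving out 2 h replicate 2 to 2. MT1X lost its call in the fit to the 9 PEO1 BRCA2+ libraries (adjusted p = 0.0548), and MT1M in the fit to the 6 libraries alone. SLC30A1 fell from a mean of 102 CPM to 76.9 CPM (-0.41 ± 0.10, adjusted p = 0.0205), against 36.1 CPM at 0 h, and lost its call without 2 h replicate 1, 2 h replicate 2 or 6 h replicate 3. Metallothionein genes are near-identical copies of one another, so the split of reads among them is uncertain.

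Of 23 NF-kB targets, 4 rose and 0 fell (median 0.13). The cytokine CSF1 had 146, 141 and 163 CPM at 0 h, 71.02, 68.1 and 65.3 CPM at 2 h and 93.8, 96.9 and 101 CPM at 6 h (0.51 ± 0.067, adjusted p = 2.79e-05), and the chemokine CXCL8 56.7, 49.7 and 61.9, then 40.9, 46.02 and 41.6, then 58.1, 66.01 and 62.8 CPM (0.54 ± 0.11, adjusted p = 0.00335). Both were lowest at 2 h. The cytokine IL6 (0.63 ± 0.17, adjusted p = 0.0241) and the co-regulator BCL3 (0.24 ± 0.069, adjusted p = 0.0369) rose as well, but IL6 lost its call without any one library except 6 h replicate 2 (adjusted p 0.0534 to 0.122) and BCL3 without any one of the 6 (0.0648 to 0.135). The interferon response had 4 of 38 members lower and 0 higher (median -0.21), namely OASL (-0.64 ± 0.15, adjusted p = 0.0157), IRF9 (-0.40 ± 0.11, adjusted p = 0.0252), the RNA sensor RIGI (-0.39 ± 0.11, adjusted p = 0.0348) and IFI44 (-0.40 ± 0.12, adjusted p = 0.0394). The number of members that fell was 1 with scaling to library totals, 0 without 2 h replicate 2 or 3 or 6 h replicate 1 or 2, 1 without 2 h replicate 1 and 2 without 6 h replicate 3. OASL kept its call without 2 h replicate 1 only, and IRF9 and IFI44 lost theirs without any one library and with scaling to library totals. In PEO4, 36 of the 38 were lower (94.7%, beside 31.3% of all genes), with a median of -0.97.

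The TGF-beta, BMP and ID list had 3 of 44 members higher (6.82%, beside 3.96% of all genes) and 4 lower (9.09%, beside 2.98%), with a median of 0.0095. Beside the 3 ID genes, LTBP1, which tethers latent TGF-beta, fell (-0.38 ± 0.12, adjusted p = 0.0492). The members that rose were SMURF2, a ubiquitin ligase that limits the pathway, from 249.6, 266 and 262 CPM to 315, 300.3 and 339.6 CPM (0.30 ± 0.06, adjusted p = 0.00301), and the receptors ACVR2B (0.40 ± 0.095, adjusted p = 0.0101) and TGFBR2 (0.25 ± 0.062, adjusted p = 0.0121). The count of members that rose was 1 without 6 h replicate 1 and 2 without 2 h replicate 1 or 6 h replicate 3, and LTBP1 lost its call without any one library.

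Of 29 YAP/TEAD genes, 2 rose and 3 fell. The target ANKRD1 fell from 3.97, 3.62 and 3.28 CPM to 1.68, 2.33 and 1.76 CPM (-0.91 ± 0.18, adjusted p = 0.00199), the target AMOTL2 from 352, 353 and 353 CPM to 296, 294 and 297 CPM (-0.26 ± 0.055, adjusted p = 0.00502), and the factor TEAD2 changed by -0.66 ± 0.17 (adjusted p = 0.0198), a call kept only without 6 h replicate 3. The co-activator WWTR1 rose (0.25 ± 0.052, adjusted p = 0.00412), as did the kinase NUAK2 (0.33 ± 0.076, adjusted p = 0.00793), which lost its call without 6 h replicate 1 (adjusted p = 0.0636). Of 29 WNT feedback and target genes, the planar polarity genes PRICKLE2 and PRICKLE1 changed by -0.93 ± 0.16 (adjusted p = 0.000581) and 0.49 ± 0.11 (adjusted p = 0.00752), and the transcription factor TCF7 fell (-0.33 ± 0.067, adjusted p = 0.00326). PRICKLE1 lost its call without 6 h replicate 1 (adjusted p = 0.0852). No WNT ligand or receptor of 30 tested passed the test. In the MAPK feedback list of 18, the phosphatase DUSP7 rose from 41.8, 41.1 and 43.9 CPM to 63.4, 61.2 and 66.7 CPM (0.59 ± 0.069, adjusted p = 5.57e-06) and the transcription factor ETV5 fell (-0.35 ± 0.07, adjusted p = 0.00272). Of 27 AP-1 and immediate early genes only SRF passed (0.25 ± 0.063, adjusted p = 0.0169), and it lost that call without 2 h replicate 1 or 3 or 6 h replicate 1 or 2.

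BRCA2, the gene that tells this line from its parent, was lower at 6 h (chromosome 13, 32315077 to 32400268). It had 7.86, 8.8 and 8.08 CPM at 0 h, 6.202, 6.75 and 7.97 CPM at 2 h and 5.15, 4.67 and 5.25 CPM at 6 h, from 197, 261 and 267 reads at 2 h and 190, 154 and 179 reads at 6 h. The 3 libraries at 6 h lay below all at 2 h, the highest of which, replicate 3, overlapped the 0 h range. The change was -0.47 ± 0.12 (adjusted p = 0.016), and an exact 2-sided permutation test of the 6 libraries gave p = 0.1, the smallest it can give. The call was lost without 2 h replicate 3 (-0.36, adjusted p = 0.128), without 6 h replicate 1 (-0.49, adjusted p = 0.0528) and without 6 h replicate 2 (-0.42, adjusted p = 0.0875). In PEO4 BRCA2 changed by 0.39 ± 0.11 (adjusted p = 0.00453), and the difference between the lines was 0.86 (adjusted p = 0.00017). BRCA2 overlaps ZAR1L in the annotation, and a level of its RNA says nothing of the reading frame.

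In the homologous recombination and Fanconi anemia list, 3 of 38 rose and BRCA2 alone fell (median 0.069). FANCF of the Fanconi core complex (0.34 ± 0.08, adjusted p = 0.00844) lost its call without 6 h replicate 2 (adjusted p = 0.0587), the recombination gene XRCC2 (0.25 ± 0.068, adjusted p = 0.028) without 4 of the 6 libraries (0.0785 to 0.182), and FANCA (0.18 ± 0.054, adjusted p = 0.0471) without any one. The FANCA call was also lost with DESeq2 or upper quartile scaling and with either other filter. A replicate block within each line or leaving out ribosomal RNA genes lost it as well. Of 17 helicases that unwind G-quadruplexes, PIF1 fell from 15.4, 14.3 and 14.1 CPM to 9.19, 8.85 and 9.13 CPM (-0.69 ± 0.10, adjusted p = 7.42e-05), with 13.8, 15 and 14.8 CPM at 0 h, and the 0 h and 2 h libraries overlapped. PIF1 is also a member of the mitosis and G2/M list and is already counted there among the 27 of 63 that fell. WRN, the Werner syndrome helicase, was 0.20 ± 0.061 higher (adjusted p = 0.0469), a call lost without any one library but 6 h replicate 2 (0.0711 to 0.21) and with each of 3 other scalings. The WRN call was also lost with either other filter, a replicate block within each line, or ribosomal RNA genes left out. Of 23 topoisomerase and break repair genes, LIG4 of end joining rose (0.35 ± 0.093, adjusted p = 0.0228), and MCM9 (-0.36 ± 0.085, adjusted p = 0.0103), LIG3 (-0.20 ± 0.059, adjusted p = 0.0349) and TOP2A fell. MCM9 lost its call without 2 h replicate 3 or 6 h replicate 2 (0.0904 and 0.0616), LIG4 without 5 of 6 libraries (0.0501 to 0.126) and LIG3 without 5 of 6 (0.0754 to 0.146), and with a filter of at least 1 count in all 1 member of this list fell in place of 3.

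Of 24 p53 targets, the death receptor TNFRSF10B rose from 144, 146 and 156 CPM to 183, 166 and 192 CPM (0.28 ± 0.055, adjusted p = 0.00248) and SESN2, already named among the stress genes, fell. CDKN1A, the p21 inhibitor of cell cycle kinases, had a mean of 8.88 CPM at 0 h, 18.2 CPM at 2 h and 18.7 CPM at 6 h (0.042 ± 0.13 from 2 h to 6 h, adjusted p = 0.914), and MDM2, which degrades p53, changed by -0.025 ± 0.064 (adjusted p = 0.893). Of 16 shelterin, CST and telomerase genes, TERF2IP rose (0.22 ± 0.059, adjusted p = 0.0201), a call kept without 2 h replicate 2 or 6 h replicate 3 only. Among 17 oncogenes with known promoter G-quadruplexes, VEGFA and PDGFA (0.53 ± 0.12, adjusted p = 0.00565) rose and none fell (median -0.018). MYC, the best known of them, changed by -0.034 ± 0.053 (adjusted p = 0.801).

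Of 62 ribosome biogenesis and Pol I genes, 3 rose and 0 fell (median 0.024): the Pol I factor UBTF, from 204, 201 and 196 CPM to 247, 249 and 228 CPM (0.27 ± 0.057, adjusted p = 0.00438), the assembly factor RRS1 (0.29 ± 0.059, adjusted p = 0.00315) and the Pol I subunit POLR1E (0.22 ± 0.058, adjusted p = 0.0203), whose call was lost without 4 of the 6 libraries (0.0736 to 0.110). In PEO4, 51 of the 62 were higher (82.3%, beside 28.9% of all genes), with a median of 0.51. None of 76 ribosomal protein genes passed (median -0.0013, against 68 lower in PEO4, beside 31.3% of all genes), none of 20 ribosomal RNA genes (median -0.33) and none of 70 nuclear-encoded oxidative phosphorylation genes (median -0.024). Of 18 SR splicing factors and CLK kinases, SRSF6 fell from 258, 255 and 251 CPM to 193, 190.1 and 183 CPM (-0.43 ± 0.069, adjusted p = 0.000311), SRSF5 from 168, 166 and 166 CPM to 116, 114 and 127 CPM (-0.48 ± 0.10, adjusted p = 0.00603) and SRSF4 by a change of -0.24 ± 0.053 (adjusted p = 0.00614), the last losing its call without 2 h replicate 2 (0.0584). All 3 were highest at 2 h, and at 6 h SRSF6 overlapped its 0 h range of 199.5, 163 and 190.3 CPM. Of 28 genes of Pol II elongation, the cyclin CCNT2 fell (-0.29 ± 0.07, adjusted p = 0.0114) and the elongation factor ELL rose (0.22 ± 0.062, adjusted p = 0.0317), with calls lost without 3 and 5 of the 6 libraries. Of 23 snoRNA host genes, SNHG14 fell (-0.22 ± 0.06, adjusted p = 0.0239), a call lost without any one library.

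The remaining lists had few or no calls. Of 28 lysosome and autophagy genes, the RAG GTPase RRAGC (0.33 ± 0.063, adjusted p = 0.00148) and the transcription factor MITF (0.54 ± 0.14, adjusted p = 0.0162) rose and UVRAG (-0.26 ± 0.06, adjusted p = 0.00838) fell, MITF and UVRAG losing their calls without 4 and 3 of the 6 libraries. Of 22 NRF2 targets, HMOX1, which breaks down heme, fell (-0.60 ± 0.15, adjusted p = 0.0217), and of 20 circadian clock genes NR1D2 fell (-0.21 ± 0.054, adjusted p = 0.0208). HMOX1 and NR1D2 were called in 2 of the 6 fits that left out a library. No mesenchymal gene of 22 passed the test.

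**Figure D4:**
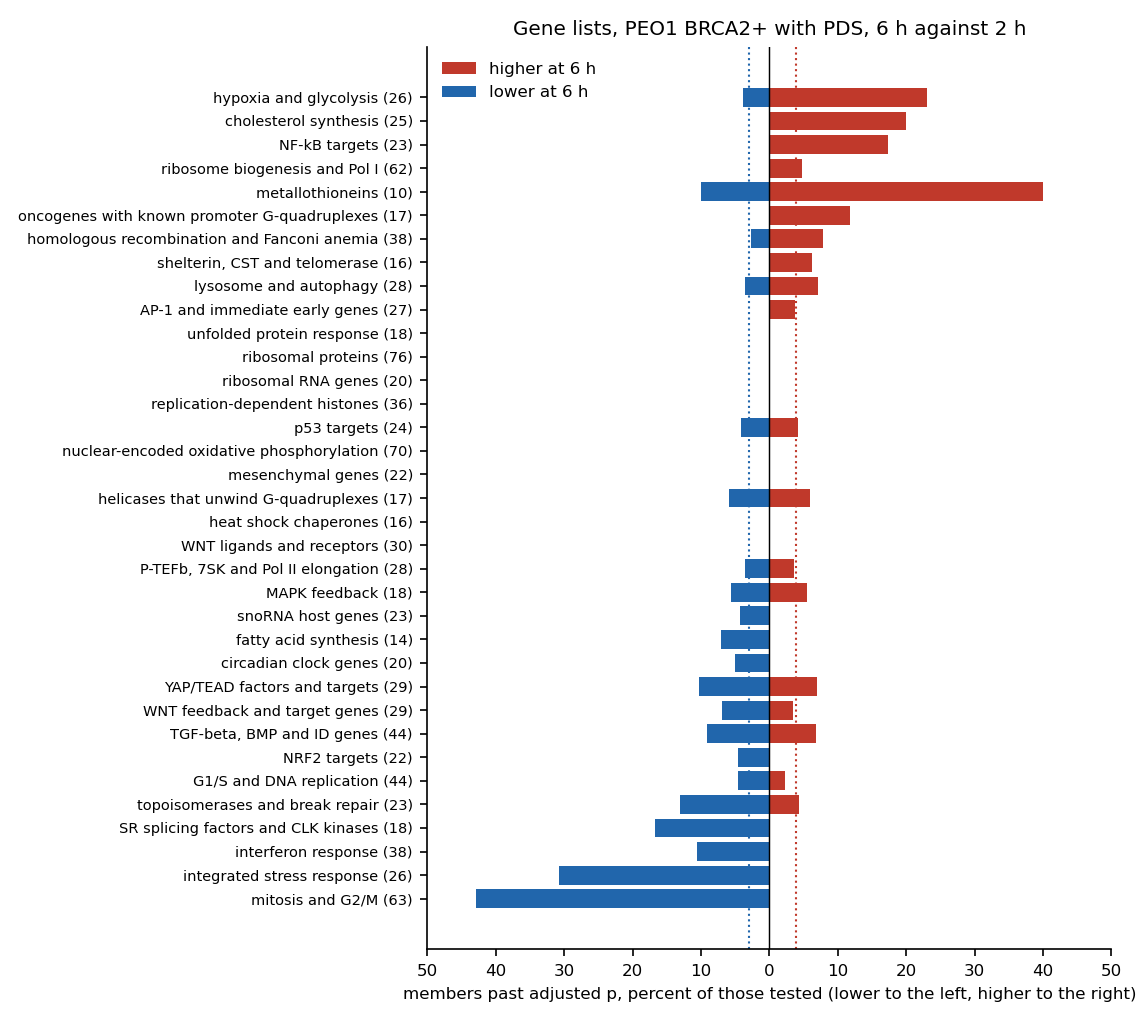
Share of the tested members of each of 35 gene lists that were higher (red, to the right) or lower (blue, to the left) at 6 h than at 2 h in PEO1 BRCA2+ past an adjusted p of 0.05, in percent (x axis), with the number tested after each name (y axis). Dotted lines mark the shares over all genes tested, 3.96% and 2.98%, and mitosis and G2/M has the longest bar to the left, with 27 of 63.

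More genes were called in PEO4 over the same interval. There 4915 genes were higher (28.9%) and 5322 lower (31.3%), together 10237 (60.1%). The median absolute change was 0.364, against 0.118 in PEO1 BRCA2+. These libraries are not shared between the lines. Of the 674 genes that rose in PEO1 BRCA2+, 409 were also higher in PEO4 (60.7%) and 87 lower (12.9%), beside 28.9% and 31.3% of all genes tested. Of the 508 that fell, 299 were lower in PEO4 (58.9%) and 70 higher (13.8%). Over the 1182 genes Pearson's r between the changes of the lines was 0.52, and over all 17020 genes r was 0.17 and Spearman's rank correlation 0.21, which describe genes of 2 related lines that are not independent replicates. The 1182 were chosen by their change in PEO1 BRCA2+, which leaves out changes near 0 and can by itself raise r.

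The difference between the lines was tested as PEO4 change minus PEO1 BRCA2+ change in the same fit. It passed an adjusted p of 0.05 for 347 of the 674 genes that rose and 258 of the 508 that fell, beside 43.3% of all genes. The PEO1 BRCA2+ change that chose these genes is also a term of the difference, so the choice itself can raise these counts. CA9 was the extreme of the named genes: in PEO4 it went from a mean of 1.02 CPM at 2 h to 0.0863 CPM at 6 h (-3.56 ± 0.52, adjusted p = 5.62e-06), with a difference of -6.19 (adjusted p = 4.15e-08). HAS2 was 2.16 ± 0.21 in PEO4 and -0.77 ± 0.13 in PEO1 BRCA2+ (difference 2.93, adjusted p = 6.84e-09), and STARD13 was 1.06 ± 0.10 against -0.69 ± 0.10 (difference 1.74, adjusted p = 3.93e-09). HAS2 was also low in PEO4, with a mean of 0.738 CPM at 2 h and 3.36 CPM at 6 h. PHF23 rose in both lines, by 1.63 ± 0.067 in PEO4, and so did DUSP7, by 1.72 ± 0.07. BRINP2 and UNC5A fell in both, by a log2 change of -3.04 ± 0.36 and -2.55 ± 0.14 in PEO4. The level of BRINP2 was low in PEO4, with a mean of 2.72 CPM at 2 h and 0.310 CPM at 6 h. In PEO1 BRCA2+ its means were 30.7 and 17.1 CPM. For NAB2 the change in PEO4 was 0.16 ± 0.069, with a difference of -0.83 (adjusted p = 1.15e-06).

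**Figure D5:**
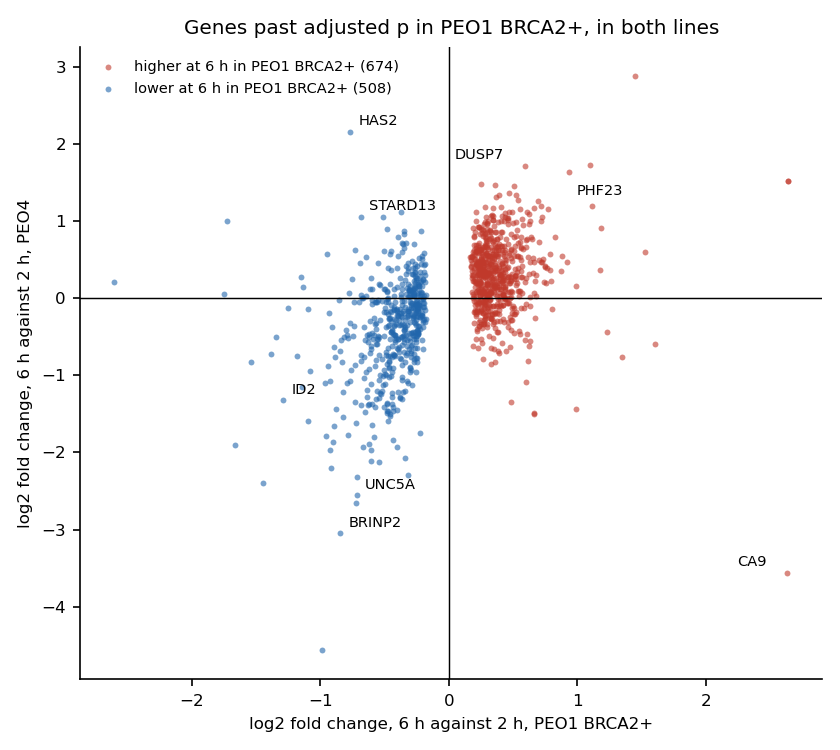
Log2 fold change at 6 h against 2 h in PEO4 (y axis) against that in PEO1 BRCA2+ (x axis) for the 1182 genes past the adjusted p in PEO1 BRCA2+, red for the 674 higher and blue for the 508 lower. The empty strip around 0 on the x axis comes from the choice of genes, and CA9 at the lower right and HAS2 at the upper left changed in opposite directions in the lines.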

How the data were processed

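RNA was sequenced from 24 samples of PEO1 and PEO4 lines, of which 18 share the count table used here. That table holds deposited counts of reads per gene, whole numbers that the authors made with fastp, STAR and featureCounts on hg38 (per the labels, without versions), after poly(A) selection and paired-end reads. The annotation and strand setting were not given in the sources used here. A second table, of the other 6 libraries, was not used. Every column was mapped to a sample (0 left over). Of 28277 genes, 4746 had no read, and 1 line without readable counts was left out. Intervals cover counting error only.

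Counts were fitted with edgeR 4.0.16 (R 4.3.3): TMM scaling, a filter with a minimum count of 10 in the smallest group and 15 in total, a robust quasi-likelihood fit with 1 mean for each group of 18 libraries (12 residual degrees of freedom), and the contrast of 6 h minus 2 h. The 18 libraries share 1 estimate of the spread. Genes were called at an adjusted p under 0.05, alone or with a log2 change beyond 1. CPM use the TMM library sizes. DESeq2 1.42.0 and the other alternatives are given at the end. The steps were tested on simulated data. No pair of libraries of a group agreed within sampling noise.

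The comparison, the 36 gene lists and the cell type markers were chosen with earlier results of these data known. Genes are named by rule: BRCA2, the genes past the fold threshold with a mean log2 CPM of at least 1, the 12 up and 12 down with the largest change whose groups do not overlap and whose mean log2 CPM reaches 3, and up to 4 members with the smallest adjusted p for each list with 2 or more past the test. Pseudogenes and unnamed genes were passed over, and further list members and low-count genes were named after their values were seen. Positions are from RefSeq (GRCh38.p14). Promoters were read from hg38 at the start of the Ensembl canonical transcript (GENCODE, 93.5% of tested genes matched), and gene length was known for 96% of tested genes.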

Additional observations from a re-analysis of the deposited data

Results flagged for a closer look

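Of the 87 genes named by rule, 53 had a change from 2 h to 6 h that differed between the lines, tested as PEO4 change minus PEO1 BRCA2+ change on the log2 scale by edgeR's quasi-likelihood test at an adjusted p under 0.05, beside 43.3% of all genes tested. The groups of 3 libraries are too small to test a single library as an outlier. The PEO1 BRCA2+ values were chosen for being past the test in that line, so these differences are descriptions of chosen genes.

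In 16 of the 53 the lines moved in opposite directions, each past the test. The genes higher at 6 h in PEO1 BRCA2+ and lower in PEO4 were CA9 (difference -6.19), MT1M (-1.42), IL6 (-1.24), NUAK2 (-1.19), MT1F (-1.18), PRICKLE1 (-0.90), VEGFA (-0.69), SQLE (-0.67), BCL3 (-0.55), TNFRSF10B (-0.53), WWTR1 (-0.41) and ELL (-0.37). The genes lower in PEO1 BRCA2+ and higher in PEO4 were HAS2 (2.93), STARD13 (1.74), BRCA2 (0.86) and E2F8 (0.65). The adjusted p of the difference was 4.15e-08 for CA9, 6.84e-09 for HAS2, 3.93e-09 for STARD13 and 0.00017 for BRCA2.

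Genes that fell in both lines, and further in PEO4, were BRINP2 (-2.20), UNC5A (-1.84), IRF9 (-1.53), ANKRD1 (-1.28), SRSF6 (-1.03), SRSF5 (-1.0), HIP1 (-0.99), AMOTL2 (-0.70), ALDH1L2 (-0.64), ETV5 (-0.35) and SHMT2 (-0.22). Genes that rose in both, and further in PEO4, were DUSP7 (1.12), PHF23 (0.70), LIG4 (0.67), SMURF2 (0.59), ACTBL2 (0.56), RRS1 (0.48), FAM193B (0.48), UBTF (0.39), ZNF514 (0.39), POLR1E (0.39), XRCC2 (0.38) and FANCA (0.24).

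In the others the change was smaller in PEO4 or did not pass the test there. They were LONRF1 (-0.94), NAB2 (-0.83), CSF1 (-0.72), BNIP3 (-0.68), MT1X (-0.61), CYP51A1 (-0.50), FANCF (-0.45), CXCL8 (-0.45) and MVK (-0.28) among genes that rose in PEO1 BRCA2+, and PIF1 (0.73), FAM83D (0.67), MAGI1 (0.37), KIF18A (0.31) and KIF2C (0.27) among genes that fell.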

How the results depend on the processing

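With 3 libraries a group, the calls rest on a spread shared by 18 libraries, and any fit that leaves out a library has fewer samples by construction. Without 1 library at a time, the genes past adjusted p alone numbered 336 to 501 higher and 233 to 439 lower, those past the fold threshold as well 5 to 11 higher and 7 to 24 lower, the mitosis and G2/M genes that fell 17 to 24, and the BRCA2 change was -0.55 to -0.36. For the total of 1182 calls, 811 were shared with the fit without 6 h replicate 3 and 563 with that without 6 h replicate 1. A fit to the 6 libraries alone gave 1176 higher and 1160 lower and shared 1167 of the 1182, a fit to the 9 PEO1 BRCA2+ libraries gave 1120 and 1012 and shared 1174, and with the fold threshold the latter gave 27 lower. An adjusted p under 0.01 left 295 higher and 206 lower, and a fold of 1.5 in place of 2 gave 74 higher and 105 lower. DESeq2's Wald test gave 758 higher and 738 lower at adjusted p alone and shared 1159 of the 1182, but with the fold threshold 6 higher and 9 lower. A filter of 1 CPM in 3 libraries left 8 lower past the fold threshold. The cause of these differences was not tested. With loops of up to 12 bases the motif shares were 61.7% for genes that rose, 56.9% for genes that fell and 52.4% for all genes tested.

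Replicate numbers were not taken to pair the libraries: deviations of same-numbered libraries from their group means correlated at 0.084, 0.069 and 0.54, while 2 h replicate 1 correlated best with 6 h replicate 2 (0.53). With the replicate number as a block, the 6 libraries gave 1737 higher and 1776 lower at adjusted p alone, 33 lower past the fold threshold and 45 mitosis and G2/M genes that fell, and a block within each line over 18 libraries gave 10 lower past the fold threshold. In the other alternatives for scaling, filters and ribosomal RNA genes the counts over all genes and of mitosis and G2/M genes stayed within 1.5 times. In 9 other lists 21 counts moved further, 4 of them from 2 calls or more: with scaling to library totals, interferon response genes that fell went from 4 to 1 and G1/S genes from 2 to 1, and with a filter of at least 1 count in all, cholesterol genes that rose went from 5 to 3 and topoisomerase and break repair genes that fell from 3 to 1. The 86 named genes besides BRCA2 had 1462 alternative values, of which 1317 kept their side of the threshold, 145 lost the call (115 of them when a library was left out) and 0 changed direction. The calls in PEO4 and of the difference between the lines stayed within 1.5 times under each alternative tried.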

Other observations

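Genes with a ZNF symbol, which encode zinc finger proteins that are mostly DNA-binding repressors, were looked at after the values of ZNF514 and ZKSCAN7 had been seen. Of 452 tested, 40 were higher at 6 h than at 2 h in PEO1 BRCA2+ (8.85%, beside 3.96% of all genes tested) and 14 were lower (3.10%, beside 2.98%), with a median log2 change of 0.035. In PEO4 127 were higher and 131 lower, with a median of -0.034. Against 0 h the median in PEO1 BRCA2+ was -0.032 at 2 h and 0.038 at 6 h.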
